A study of Mus musculus with 5 samples.

Results

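The regions described here were non-overlapping 5 kb tiles of the autosomes in which CpG methylation was higher in every Tet2-deficient library than in every Tet2-proficient library by a wide margin. The margin, called the gap below, was the lowest Tet2-/- level minus the highest Tet2+/+ level, and a tile was chosen when the gap was at least 20 percentage points. Of 461199 tested tiles, those in which no library had fewer than 20 calls, 1440 were chosen (0.312%). With a minimum of 50 calls, 1246 of 375200 tiles met the rule (0.332%), and with no margin asked for, 172662 of the 461199 had every Tet2-/- level above both Tet2+/+ levels (37.4%). The reverse rule, with every Tet2-/- library lower by at least 20 points, held for 37 tiles (0.00802%). Levels were higher in Tet2-/- over the tested tiles as a whole, and when each library's median was subtracted first, 308 tiles had a gap of at least 20 points. The choice rests on the levels of both genotypes, so the levels of the chosen tiles are given as a description and were not tested.

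The tiles come from whole-genome bisulfite sequencing (WGBS) of mouse acute myeloid leukemia (AML) blasts, in which bisulfite leaves methylated cytosine as C and turns unmethylated cytosine into a base read as T. All 5 libraries carried a Cebpa-/p30 genotype, that is a deleted allele and an allele encoding only the short p30 isoform of the myeloid transcription factor CEBPA. Tet2 was intact in 2 libraries (Cebpa-/p30 Tet2+/+, numbers 23 and 24) and deleted in 3 (Cebpa-/p30 Tet2-/-, numbers 5, 7 and 8). The strain is C57BL/6 (in the study, C57BL/6J donors and C57BL/6J.SJL recipients), and the submitters call the libraries biological replicates. Each library came from a separate mouse according to the study, but the labels do not say whether the leukemias arose from separate donors. According to the methods of the study, bone marrow of donor mice was transplanted into irradiated congenic recipients, and the floxed alleles were then deleted by Mx1-Cre, an interferon-inducible recombinase, after poly(I:C) injection. Live donor-derived bone marrow cells without CD3, B220 and Ter119 were sorted, so cells of every remaining type and stage were pooled, and a shift in cell composition and a change within cells cannot be told apart. The recipients were adult females and marrow was taken when they were moribund. Exact ages of the sampled mice and any batches are not given in the sources used here.

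TET2 is a dioxygenase that oxidises 5-methylcytosine to 5-hydroxymethylcytosine and further products, a route by which methylation is lost from DNA. Its activity is known mainly from enhancers and other regulatory regions outside strong CpG islands, and its gene is often mutated in myeloid malignancy. Bisulfite does not separate 5-methylcytosine from 5-hydroxymethylcytosine, so the level of a tile is the sum of both marks.

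In the targeted gene, the longest stretch of Tet2 without a call in any Tet2-/- library was chr3:133466411-133468352 (GRCm38), with 36 CpG dyads. There, 128 calls came from library 23 and 151 from library 24. The stretch was chosen for having 0 calls in each Tet2-/- library, so it is a description and no independent check of the labels. A CpG dyad is a CpG with its calls on both strands added. Depth over the autosomes was 2.999 to 5.27 calls per dyad, and the median tested tile had 104 to 178 calls per library. Chosen tiles had more, with library medians of 179.5 to 318.5 calls.

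To show what such DNA looks like, the 200-base window with the most CpGs, free of repeats and untranslated exon sequence, was read from the RefSeq GRCm38 genome for 5 chosen tiles. The first 3 are from the tiles in genes with the widest gaps, and Paqr8 and Klhl41 are genes of the study's list of genes lower in RNA upon Tet2 deletion. They are not typical, since the Tet2+/+ level was intermediate in most chosen tiles. The same kind of window in the Itsn1 tile at chr16:91890001-91895000, not printed, had 32.8% and 63.6% in Tet2+/+ libraries 23 and 24, and that in the Mmp8 tile had 50% and 5.26%. The windows are on the plus strand, 5′ to 3′, and capitals mark every CG.
Nck2, chr1:43554383-43554582: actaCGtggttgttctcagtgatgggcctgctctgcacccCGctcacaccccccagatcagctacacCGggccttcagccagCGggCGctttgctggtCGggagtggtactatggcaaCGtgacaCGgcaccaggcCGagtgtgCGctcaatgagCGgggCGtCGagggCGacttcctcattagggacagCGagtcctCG
Smg6, chr11:75001162-75001361: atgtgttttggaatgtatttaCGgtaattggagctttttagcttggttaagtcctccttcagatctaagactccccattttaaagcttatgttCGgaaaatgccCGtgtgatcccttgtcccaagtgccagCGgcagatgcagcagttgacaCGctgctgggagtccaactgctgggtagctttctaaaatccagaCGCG
Msra, chr14:64257034-64257233: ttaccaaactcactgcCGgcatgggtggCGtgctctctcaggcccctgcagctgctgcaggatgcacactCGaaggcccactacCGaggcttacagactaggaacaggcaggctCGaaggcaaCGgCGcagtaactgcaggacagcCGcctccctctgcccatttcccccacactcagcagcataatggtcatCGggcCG
Paqr8, chr1:20935303-20935502: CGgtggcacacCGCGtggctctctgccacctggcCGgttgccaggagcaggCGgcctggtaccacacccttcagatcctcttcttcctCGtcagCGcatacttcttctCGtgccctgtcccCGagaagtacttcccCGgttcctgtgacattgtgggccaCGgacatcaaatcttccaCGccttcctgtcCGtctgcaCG
Klhl41, chr2:69670479-69670678: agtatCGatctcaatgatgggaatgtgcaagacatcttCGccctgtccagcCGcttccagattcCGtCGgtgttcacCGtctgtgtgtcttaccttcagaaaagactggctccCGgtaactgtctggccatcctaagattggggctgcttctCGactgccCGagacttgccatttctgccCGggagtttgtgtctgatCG

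The Nck2 and Paqr8 windows lie wholly in coding exons, and the Smg6 and Msra windows lie in introns. In the Nck2 window, with 16 CpGs, 1 of 42 and 3 of 35 calls were methylated in Tet2+/+ libraries 23 and 24, against 82 of 93, 43 of 44 and 14 of 17 calls in Tet2-/- libraries 5, 7 and 8. In the Paqr8 window, with 14 CpGs, they were 6 of 56 and 6 of 83 against 111 of 120, 124 of 135 and 58 of 61. Few calls were methylated in the Tet2+/+ libraries and most in the Tet2-/- libraries, although 17 calls leave the Nck2 level of library 8 loosely set, at 82.4% with a 95% Wilson interval of 58.97% to 93.8%.

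The Msra window had 4 of 44 and 3 of 53 methylated calls in Tet2+/+ and 49 of 57, 45 of 47 and 32 of 34 in Tet2-/-. The Smg6 window, with only 7 CpGs, was of the same kind, at 1 of 50 and 6 of 41 methylated calls against 51 of 59, 41 of 46 and 27 of 31.

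The Klhl41 window, in the coding exon of the tile that holds the gene's transcription start site (TSS), did not separate the genotypes. It had 8 of 44 and 0 of 80 methylated calls in Tet2+/+ libraries 23 and 24, where 0 of 80 allows a level of up to 3.75%. Tet2-/- libraries 5, 7 and 8 had 9 of 56, 112 of 119 and 39 of 88. Library 5 (16.1%) was below Tet2+/+ library 23 (18.2%) there, although the whole tile met the rule.

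Over all 1440 chosen tiles, the median level of Tet2+/+ libraries 23 and 24 was 49.4% and 44.6%. That of Tet2-/- libraries 5, 7 and 8 was 75.9%, 83.1% and 76.8%. Over all tested tiles the medians were 71.0% and 65.2% against 75.3%, 80.8% and 71.3%. Chosen tiles thus had a low level in the Tet2+/+ libraries and a usual level in the Tet2-/- libraries. Averaged by genotype, these medians gave 47.0% ± 3.41 (SD, n = 2) for Tet2+/+ against 78.6% ± 3.92 (SD, n = 3) for Tet2-/-, compared with 68.1% ± 4.10 and 75.8% ± 4.75 over all tested tiles.

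**Figure D1:**
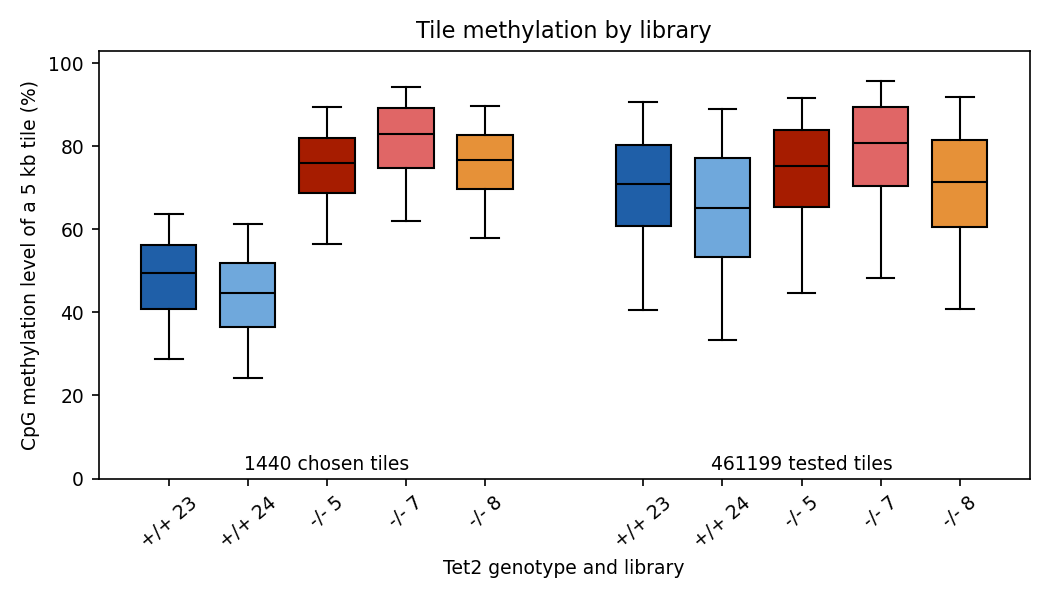
CpG methylation level (%) of 5 kb tiles in each library, for the 1440 chosen tiles (left) and all 461199 tested tiles (right). Boxes span the quartiles with the median as a line and whiskers reach the 5th and 95th percentiles; the Tet2+/+ medians of the chosen tiles are 49.4% and 44.6%, against 71.0% and 65.2% over all tested tiles.

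The difference of group means had a median of 30.02 points over the chosen tiles and 6.22 points over all tested tiles. The gap had a median of 22.6 points, quartiles of 21.04 and 25.1, and a maximum of 56.9. Most chosen tiles therefore lay close to the threshold. An intergenic tile at the threshold itself, chr13:112790001-112795000, had 56.2% and 60% in libraries 23 and 24, and 81.4%, 80.2% and 80% in libraries 5, 7 and 8. A tile just outside it, in Map3k20 (chr2:72295001-72300000), had 59% and 52.7% against 79%, 85.6% and 80%, a gap of 19.9998 points. Of 7 tiles at exactly 20 points, 6 were chosen and 1, at chr4:27195001-27200000, was left out by rounding in the computation. It had 52.9% and 53.3% against 75.5%, 74.4% and 73.3%.

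The Tet2+/+ level was intermediate rather than near 0. The mean of both Tet2+/+ libraries was under 60% in 92.6% of chosen tiles and 30.1% of all tested tiles. It was under 30% in 7.08% of chosen and 2.80% of tested tiles. The Tet2-/- mean was at least 70% in 79.4% of chosen and 65.3% of tested tiles, and at least 80% in 42.5% and 36.4%. By the Tet2+/+ level, which the rule itself used, the share of tested tiles that were chosen was largest at 30% to 40% (291 of 12951 tiles, 2.25%). It was 1.43% at 40% to 50% and 0.127% under 10%, where 2 of 1573 tiles were chosen.

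A given library often set the gap. Library 23 was the higher of the Tet2+/+ libraries in 74.2% of chosen tiles and in 74.3% of all tested tiles. The lowest Tet2-/- library was number 5 in 51.5% of chosen tiles and number 8 in 41.7%, while over all tested tiles it was number 8 in 61% and number 5 in 31.7%. Library 7, the highest of the Tet2-/- libraries over all tiles, was the lowest in 6.88% of chosen tiles.

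To see how a library left out of the rule stood in the tiles chosen by the other 4, the gap was taken with that library alone in its genotype. This measure is only partly independent of the choice, because the levels of the opposite genotype were used by the rule. Without Tet2-/- library 5, 3605 tiles were chosen, and its median gap over the highest Tet2+/+ level was 18.2 points. It was above 0 in 97.9% of them and in 64.1% of all tested tiles. For library 7, with 1732 tiles chosen without it, the median gap was 29.2 points, above 0 in 99% and in 84.2% of all tested tiles. For library 8, with 3676 tiles, it was 17.7 points, above 0 in 94.8% and in 48.0% of all tested tiles.

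The left-out Tet2-/- libraries did not themselves have high levels in those tiles. Library 5 had a median of 70.3% there and 75.3% over all tested tiles, library 7 had 80.6% and 80.8%, and library 8 had 69.4% and 71.3%. The left-out Tet2+/+ libraries had lower medians than over all tested tiles, with 62.9% against 71.0% in library 23 and 50.96% against 65.2% in library 24.

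Without library 24, 2689 tiles were chosen, and library 24 was below the lowest Tet2-/- level by a median of 20.8 points. It was below that level at all in 96.4% of them and in 67.4% of all tested tiles. Without library 23, when library 24 alone stood for Tet2+/+, 20379 tiles were chosen (4.42% of those tested). Library 23 was below the lowest Tet2-/- level by a median of 7.77 points in these, and by at least 20 points in 7.07%. It was below at all in 81.8% of them and in 43.9% of all tested tiles. The number of chosen tiles therefore depended most on library 23. Each left-out value is 1 library, and no test was made.

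The strands of the same libraries gave a reading of counting error alone, because both come from the same cells and the same CpG dyads. It was no independent check of the chosen tiles. When the rule used calls of the plus strand alone, 1848 of the 370536 tiles with at least 20 calls on each strand were chosen, with a median gap of 22.6 points. On the minus strand the same tiles had a median gap of 12.1 points, which was above 0 in 84.8% and at least 20 points in 21.9%. Over all 370536 tiles the minus-strand median was -2.63 points, above 0 in 35.7% and at least 20 points in 0.494%.

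The widest gaps were in gene bodies and between genes. The tile in Nck2, an SH2/SH3 adaptor that links tyrosine kinases to actin (chr1:43550001-43555000), had levels of 29.97% and 32.5% in libraries 23 and 24, compared with 91.3%, 95.8% and 89.4% in libraries 5, 7 and 8. With 188 to 401 calls per library, the 95% Wilson intervals were 25.3% to 35.1% and 27.1% to 38.3% in Tet2+/+, and the lowest Tet2-/- interval was 84.1% to 93.0%. Such intervals cover counting error alone, since reads were deduplicated by position.

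Smg6 encodes an endonuclease of nonsense-mediated mRNA decay. Its intronic tile (chr11:75000001-75005000) had 33.0% and 26.6% in Tet2+/+ and 86.9%, 92.0% and 86.7% in Tet2-/- libraries 5, 7 and 8. Msra encodes a methionine sulfoxide reductase, and its intronic tile (chr14:64255001-64260000) had 33.3% and 25.6% against 81.3%, 92.5% and 87.6%. Peak1 encodes a cytoskeletal pseudokinase. Its exonic tile (chr9:56255001-56260000) had 34.3% and 22.4% against 78.9%, 91.9% and 85.4%. In each of these genes the levels of the genotypes were far apart and those within a genotype were closer together.

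Slc7a15 encodes an amino acid transporter, and its intronic tile (chr12:8570001-8575000) was the lowest of this group in library 24, at 12.2%, with 25.3% in library 23. The Tet2-/- levels were 77.8%, 86.4% and 69.1%. Of the 12 tiles with the widest gap, 4 overlapped no protein-coding gene. The nearest protein-coding start sites were those of Cenpe (10.0 kb), Zfp518a (22.2 kb), Trim33 (108 kb) and Cand1 (183 kb). The Cenpe-proximal tile, chr3:135200001-135205000, had 35.7% and 29.5% against 84.1%, 85.0% and 80.2%. It lies on the chromosome that carries Tet2, within a segment of 10 Mb around that gene in which 7 of 1917 tested tiles were chosen (0.365%).

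**Figure D2:**
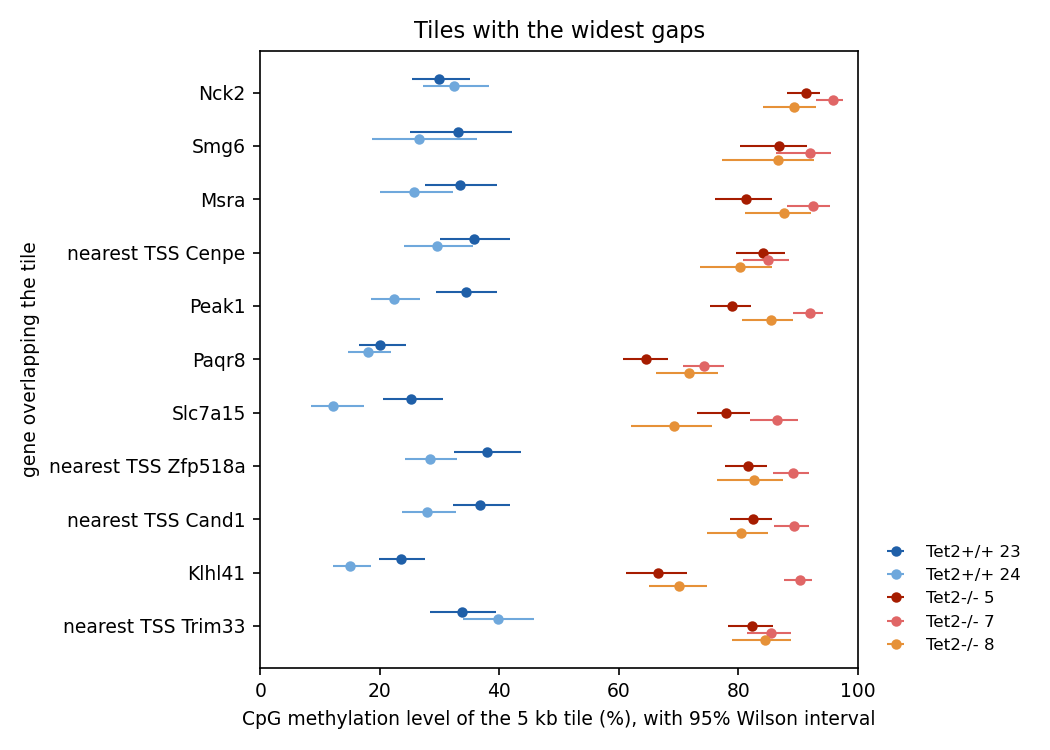
CpG methylation level (%) of 11 of the 12 chosen tiles with the widest gap and at least 50 calls in every library, one line per tile, named by the gene it overlaps or by the nearest protein-coding start site. Points are libraries (blue, Tet2+/+; red and orange, Tet2-/-) and bars are 95% Wilson intervals; the Nck2 tile, at the top, has 29.97% and 32.5% in Tet2+/+ and at least 89.4% in Tet2-/-.

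Most chosen tiles had no chosen neighbour. They formed 1425 runs, of which 15 had 2 adjacent tiles and none was longer, so that 30 of 1440 tiles (2.08%) had a chosen neighbour. Of all tested tiles, 0.608% lay next to a chosen tile. The share with a chosen neighbour depended on the rule, at 20.7% without library 23, 6.66% without library 5, 4.13% without library 8 and 22.2% at a gap of 10 points. The median distance to the nearest other chosen tile was 340 kb for chosen tiles and 725 kb for tested tiles, and 23.6% and 10.7% lay within 100 kb of one. Of 2413 windows of 1 Mb, 1491 held no chosen tile, 579 held 1, 223 held 2 and 120 held 3 or more.

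Among the pairs of adjacent tiles with the widest gaps was one in Paqr8, a membrane progestin receptor gene. The Paqr8 tiles differed from each other. The first, chr1:20930001-20935000, had 59.3% and 40.5% in Tet2+/+ against 83.8%, 87.6% and 83.0% in Tet2-/-, and the second had 20.1% and 18.0% against 64.5%, 74.3% and 71.7%. Other pairs lay in Fan1, a nuclease gene of DNA crosslink repair, in Sash1 and Ildr2, and outside protein-coding genes at chr17:32095001-32105000.

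In Ildr2 (chr1:166305001-166315000) the Tet2-/- levels also remained intermediate. They were 48.1%, 48.4% and 52.1% in the first tile, with 137 dyads, against 23.3% and 21.8% in Tet2+/+. In the second tile they were 64.7%, 71.1% and 67.3% against 40.5% and 34.1%.

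The 1 Mb window with most chosen tiles was chr16:91000001-92000000, with 8 of 199. Of these, 6 lay in Itsn1, an endocytic scaffold gene, and the annotated body of Atp5o on the opposite strand overlaps the same tiles. The Itsn1 tiles did not adjoin each other. Their levels were 30.8% to 66.8% in the Tet2+/+ libraries and 61.6% to 95.4% in the Tet2-/- libraries. In the window chr10:120000001-121000000, 7 of 200 tiles were chosen, including 3 of 23 in Hmga2, which encodes a chromatin-bound high-mobility-group protein. Sash1, a signalling scaffold gene, held 5 of its 33 tested tiles.

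By chromosome, the share of tested tiles that were chosen ran from 0.237% on chromosome 1 to 0.434% on chromosome 10, and every autosome held at least 42.

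To ask how local the low Tet2+/+ level was, pooled levels of Tet2+/+ and Tet2-/- were taken in the tiles on each side, leaving out neighbours that were chosen themselves. The chosen tiles stood at 45.3% ± 3.43 (SD, n = 2) in the former genotype and at 77.0% ± 3.59 (SD, n = 3) in the latter, a difference of 31.6 points. In the tiles directly before and after, Tet2+/+ was at 61% and 60.5% and Tet2-/- at 71.0% and 70.2%, differences of 10.0 and 9.76 points. From 25 to 50 kb away the difference was 7.43 to 8.39 points, still above the 6.59 points over all tested tiles at every distance.

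Measured against its own flanks of 50 kb on each side, the Tet2+/+ level of a chosen tile minus that of the flanks had a median of -17.8 points, and was -10 points or less in 75.3% of chosen tiles. Over all tested tiles the Tet2+/+ level was above its flanks by a median of 2.66 points, and 17.4% were at -10 points or less. The Tet2-/- level of chosen tiles was above its flanks by a median of 4.28 points, compared with 2.93 points over all tested tiles. In 34.2% of chosen tiles the Tet2-/- level was below its flanks as well, and in 9.58% it was at -10 points or less. A low Tet2+/+ level beside unselected flanks was largely fixed by the rule.

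In bins of 1 kb, a step at the tile's border is set by the rule, which selected on the level within a fixed grid, and its place says nothing of where a region of low methylation ended. Library 23 was at 63.5% at 4 kb before the centre, 60.5% at 3 kb, 49.3% at 2 kb and 46.8% at the centre. Library 24 was at 58.2%, 54.7%, 44.0% and 42.03%. CpG density was 11.2 dyads per kb at the centre and 11.04 at 4 kb before it.

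**Figure D3:**
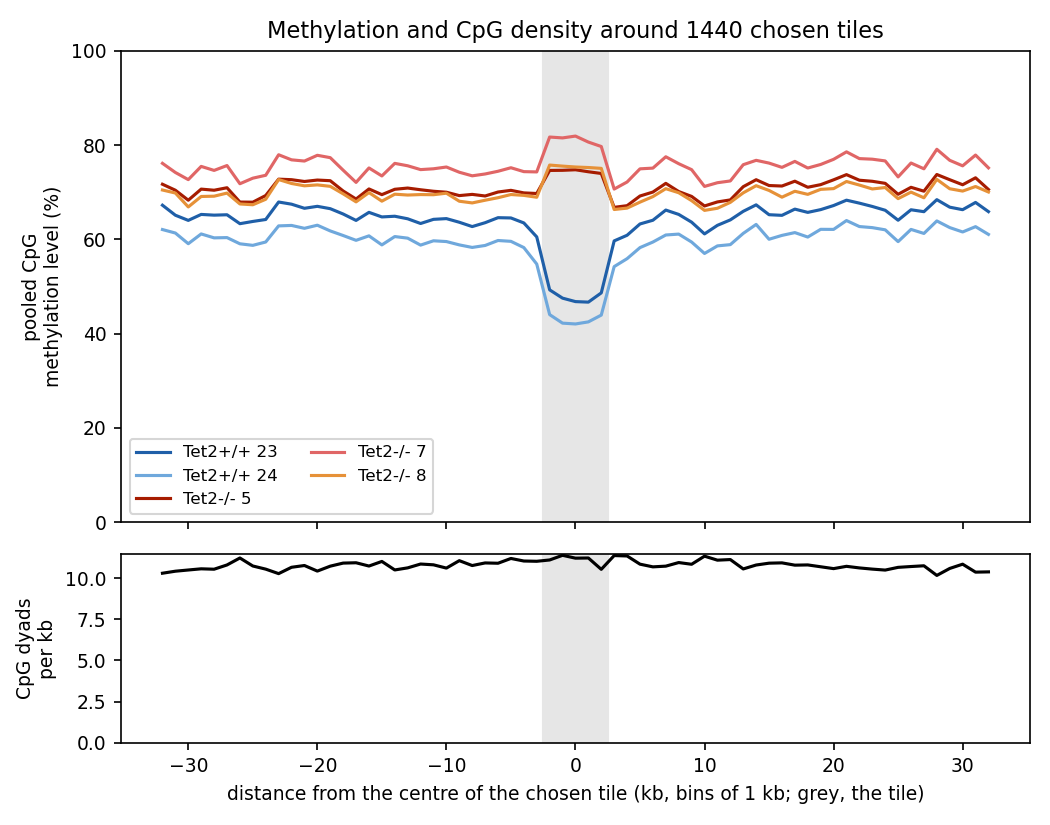
Pooled CpG methylation level (%) of each library (top) and CpG dyads per kb (bottom) against the distance in kb from the centre of the 1440 chosen tiles, in 1 kb bins; the grey band is the chosen tile. Library 23 is at 46.8% and library 24 at 42.03% in the centre, the Tet2-/- libraries are at 74.7% to 81.9%, and CpG density lies between 10.5 and 11.4 dyads per kb within 5 kb of the centre.

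Within the tiles, levels were also taken by CpG density. In 1 kb parts of chosen tiles with under 10 dyads, the Tet2+/+ level was 56.5% ± 2.39 (SD, n = 2) and the Tet2-/- level 78.1% ± 3.54 (SD, n = 3), a difference of 21.6 points. With 20 to 29 dyads, the levels were 35.6% ± 4.20 and 77.3% ± 4.61, a difference of 41.7 points. With at least 50 dyads, as in CpG islands, 27 parts had 15.1% ± 3.19 and 56.1% ± 7.49, a difference of 41.01 points. Over all tested tiles the difference was 7.03, 8.42 and 1.81 points in the same classes. These values are a description. The calls of these parts are those the rule used, and parts with more CpGs weigh more in the level of a tile, so a larger difference in the CpG-dense parts of chosen tiles follows in part from the choice.

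The difference of group means was not always at least 20 points in every part of a tile. Among 782 chosen tiles with enough calls in all 5 parts, 64 (8.18%) reached 20 points in 1 part and 199 in 2. A further 283 reached it in 3 parts, 179 in 4 and 57 (7.29%) in all 5. None of the chosen tiles had it in no part, as the rule requires for the whole tile a difference of that size. Of 159374 tested tiles with such calls, 26.2% reached it in 1 part, 3.01% in 3, 0.0991% in all 5 and 60.3% in none. A part holds fewer calls than its tile, so counting error and unevenness within a tile were not separated.

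CpG content was not used by the rule, beyond the calls it brings. Chosen tiles held a median of 55 dyads (quartiles 37 and 71), compared with 37 (25 and 54) over tested tiles. Per kb this was a median of 11 against 7.4 dyads. Without library 23 the chosen tiles had 7.8 dyads per kb, so that most of the excess was lost, and without libraries 8 and 24 they had 8.6 and 9.2. Their observed over expected CpG ratio was 0.215 against 0.170, their GC content 44.5% against 41.5%, and the share of repeats 24.5% against 26.9%. The 20 tiles nearest on either side had mean counts of 51.7 to 55.1 dyads, close to the 55.4 of the chosen tiles, so the CpG content was that of their wider surroundings.

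The share of tested tiles that were chosen was 0.109% at 20 to 29 dyads, 0.469% at 50 to 59 and 0.926% at 80 to 99, the class with the largest share. It was lower beyond that, at 0.476% for 100 to 149 dyads and 0.176% for 150 or more, where 8 of 4558 tiles were chosen and the median Tet2+/+ level of all tested tiles was 18.3%. The poorest class, under 20 dyads, had 0.236%, but 0.141% when at least 50 calls were required in every library, and the median of the lowest library's calls in that class was 38. Among tiles with a Tet2+/+ mean of 30% to 60% and at least 50 calls, the share went from 0.233% under 20 dyads to 2.96% at 80 to 99, and was 1.35% at 100 to 149 and 0.139% at 150 or more. The Tet2+/+ level was used by the rule, so these shares are a description. Depth differed as well, and the median of the lowest library's calls was 56 under 20 dyads and 312 at 80 to 99.

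**Figure D4:**
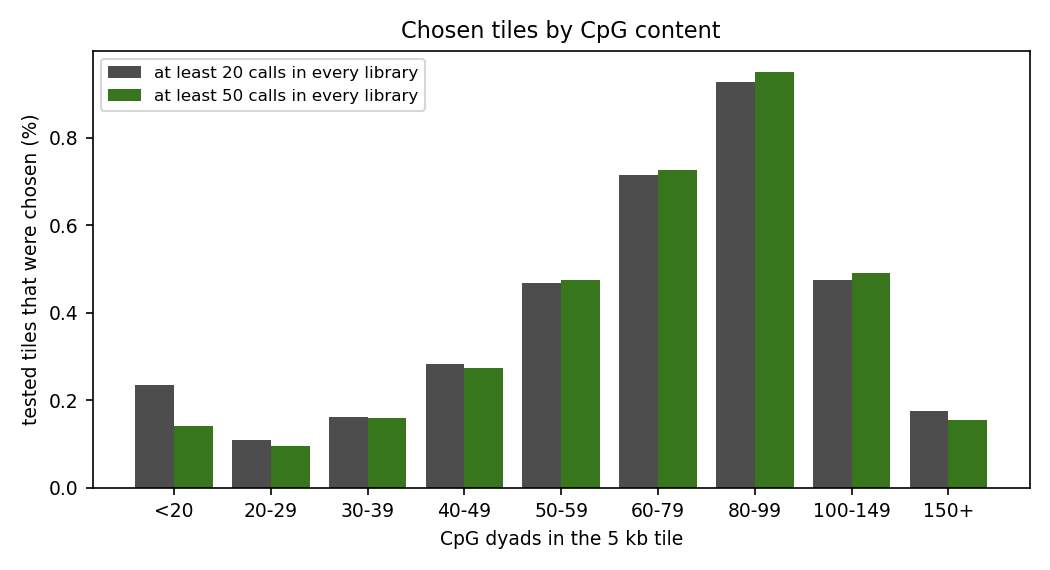
Share of tested tiles that were chosen (%, bars from 0) by the number of CpG dyads in the 5 kb tile, for tiles with at least 20 calls (grey) and at least 50 calls (green) in every library. The share is largest at 80 to 99 dyads (0.926% and 0.951%) and smaller in richer and poorer tiles.

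The richest tile, with 301 dyads, lay in Fignl2 (chr15:101050001-101055000), and its Tet2-/- libraries were unlike each other. Levels were 28.3% and 16.0% in Tet2+/+ and 86.6%, 53.6% and 84.3% in Tet2-/- libraries 5, 7 and 8. In this tile library 7 was the lowest Tet2-/- library. The tile at the start of Rspo1, a gene of a secreted enhancer of Wnt signalling (chr4:124985001-124990000, 191 dyads), had 12.7% and 13.4% against 42.5%, 52.0% and 48.0%. At Nr1h2, the gene of the oxysterol receptor LXR beta (chr7:44550001-44555000, 186 dyads), levels were 25.7% and 10.0% against 60.8%, 59% and 52.8%.

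Insm2, a zinc-finger factor gene (chr12:55595001-55600000, 182 dyads), had 25.1% and 25.4% against 55.8%, 50.04% and 70.5%. A tile in Gtpbp6 and Plcxd1 with 186 dyads had 47.7% and 47.5% against 71.8%, 67.9% and 72.2%. The tile at BC107364 had 240 dyads but only 26 to 53 calls per library. At Rspo1, Nr1h2 and Insm2 the Tet2-/- levels were intermediate, below the medians of the same libraries over all tested tiles.

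With respect to genes of the GENCODE annotation, 54 chosen tiles contained a protein-coding TSS (3.75%, against 4.02% of tested tiles). A further 396 held an exon of a protein-coding gene without a TSS (27.5% against 19.3%), and 270 lay in introns only (18.8% against 22.0%). In 157 there was another kind of gene only (10.9% against 9.73%), and 563 lay outside annotated genes (39.1% against 45.0%). The share chosen was 0.445% among exonic tiles without a TSS, 0.291% among TSS tiles, 0.267% among intronic tiles and 0.271% outside genes. Tiles overlapping any part of a protein-coding gene made up 50% of chosen and 45.3% of tested tiles. That order was reversed when library 23, 24 or 8 was left out of the rule, with 41.6%, 44.3% and 42.03% of the then chosen tiles.

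The median distance from the tile centre to the nearest protein-coding TSS was 36.5 kb for chosen tiles and 71.9 kb for tested tiles. Within 2 kb the shares were alike, at 3.13% of chosen and 3.23% of tested tiles. Within 10 kb they were 20.3% and 14.3%, and within 100 kb 75.1% and 57.04%. CpG content and distance moved together. Among tiles of 50 to 79 dyads, the share chosen was 0.718% within 10 kb of a TSS, 0.629% at 10 to 50 kb, 0.743% at 50 to 100 kb, 0.445% at 100 to 200 kb and 0.252% at 200 to 500 kb. Among tiles under 30 dyads it was 0.174% within 10 kb and 0.187% beyond 500 kb, with 0.102% to 0.198% in between. Among tiles of 30 to 49 dyads it went from 0.353% within 10 kb to 0.0915% beyond 500 kb. Tiles of 80 or more dyads differed near the TSS, with 0.419% within 10 kb, 0.997% at 10 to 50 kb and 1.13% at 50 to 100 kb, and had 0.780% at 100 to 200 kb and 0.398% at 200 to 500 kb.

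**Figure D5:**
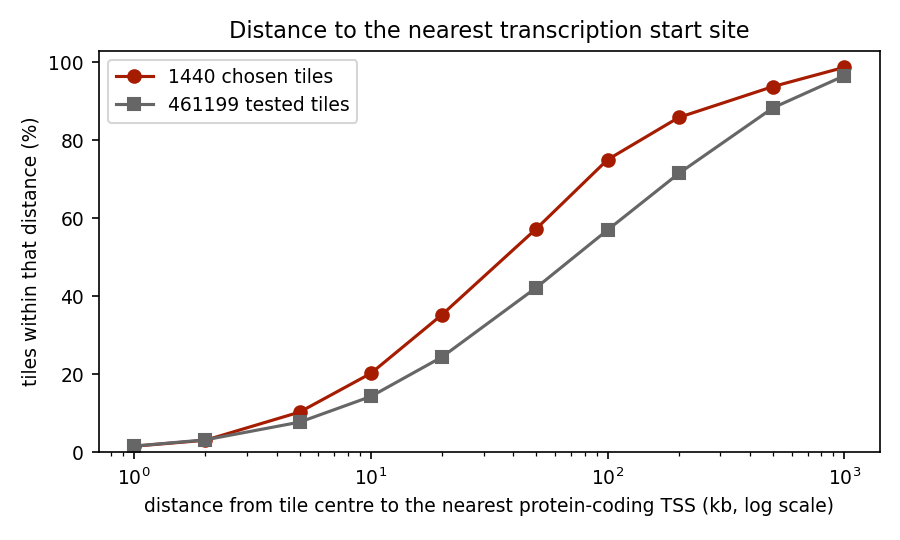
Cumulative share of tiles (%) within a given distance (kb, log scale) of the nearest protein-coding TSS, for chosen tiles (red) and tested tiles (grey). The curves start together at 2 kb (3.13% and 3.23%) and part farther out, with 75.1% and 57.04% within 100 kb.

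Among the TSS tiles with the widest gaps was that of P2ry6, the receptor for UDP (chr7:100970001-100975000), with 43.4% and 41.5% in Tet2+/+ and 89.8%, 82.1% and 88.0% in Tet2-/- libraries 5, 7 and 8. The tile of Eid3, which lies in the body of the thioredoxin reductase gene Txnrd1 (chr10:82865001-82870000), had 41.2% and 33.0% against 81.0%, 88.0% and 78.6%. That of Nr1h4, the gene of the bile acid receptor FXR (chr10:89530001-89535000), had 34.5% and 50.3% against 80.7%, 91.6% and 91.0%. At these start sites each Tet2-/- level was above the median of its library over all tested tiles.

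The tile of Klhl41, a muscle kelch-protein gene (chr2:69670001-69675000), had 23.5% and 15.02% against 66.5%, 90.2% and 70.1%, and the Tet2-/- libraries spread over more than 20 points. Irgc1, a gene of the immunity-related GTPase family, had 24.7% and 24.7% against 54.2%, 74.9% and 57.4% (chr7:24450001-24455000). Bcl2a1a and Bcl2a1b, anti-apoptotic genes of the BCL2 family, are near-identical paralogs, and reads may be assigned to the wrong copy. The tile of Bcl2a1a had 36.8% and 8.57% against 75.8%, 83.2% and 76.3% from 70 to 101 calls, and that of Bcl2a1b had 13.04% and 16.3% against 54.8%, 58.5% and 73.4%.

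Chosen tiles with their centre in a gene body were found in 607 of 18643 protein-coding genes with a tested tile (3.26%). Of these genes, 553 held 1 chosen tile, 42 held 2 and 12 held 3 or more. The share of genes with a chosen tile depended on gene length, from 0.81% of genes with 1 or 2 tested tiles to 14.5% of genes with more than 40. Among genes with at least 10 tested tiles, the largest shares of chosen tiles were in Paqr8 (2 of 10), Ildr2 (2 of 12), Itsn1 (6 of 38), Slc28a3 (2 of 13) and Sash1 (5 of 33). Slc7a15 (2 of 14), Hmga2 (3 of 23), Atp5o (6 of 48), Neurl1a (2 of 16) and Clic5 (2 of 18) followed. Pde4d, a cAMP phosphodiesterase gene with 297 tested tiles, held 4, and the long gene model Gm20388 held 6 of 870.

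Lists of genes known from hematopoiesis and leukemia held few chosen tiles, and so did protein-coding genes as a whole (3.26%). None was found in 20 stem cell and leukemia transcription factor genes with 522 tested tiles, in 15 myeloid transcription factor genes with 87, or in 23 signalling genes with 423. There was also none in 18 adhesion and surface marker genes with 139 tested tiles, 21 lymphoid genes with 263, and 8 mast cell and basophil genes with 58. Over all protein-coding genes, 685 of 200872 tiles centred in a body were chosen (0.341%). At that share, lists of this size would hold few chosen tiles or none, so an empty list does not set its genes apart. The lists also hold only some genes of each kind.

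Each of the other lists had a chosen tile in 1 gene. Among 17 neutrophil and monocyte effector genes it was Mmp8, the neutrophil collagenase, at chr9:7560001-7565000. Its levels were 40.6% and 27.1% in libraries 23 and 24, compared with 76.3%, 87.8% and 79.7% in libraries 5, 7 and 8. Among 24 cytokine receptor genes it was Flt3, a receptor tyrosine kinase of progenitors (chr5:147330001-147335000), with 59.1% and 45.7% against 83.6%, 82.8% and 83.1%. Both tiles hold exons and no TSS of the gene.

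Among 12 erythroid and megakaryocytic genes it was Zfpm1, which encodes the GATA1 cofactor FOG1 (chr8:122295001-122300000), with 65.8% and 61% against 90.7%, 90.7% and 88.8%. Among 22 genes of DNA methylation and chromatin it was the de novo methyltransferase gene Dnmt3b (chr2:153675001-153680000), with 49.5% and 62.2% against 82.7%, 94.0% and 88.0%. In Dnmt3b it was library 24 that was the higher of the Tet2+/+ libraries.

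The study's own lists of genes that were lower or higher in RNA in Tet2-deficient Cebpa-mutant blasts were set beside the tiles by membership only. They come from blasts of the same genotypes and are not independent of these leukemias. Of 152 genes lower in RNA with a tested tile, 17 held a chosen tile (11.2%), and 18 of their 2189 tiles were chosen (0.822%). Of 49 genes higher in RNA, 4 held a chosen tile (8.16%), and 10 of 553 tiles were chosen (1.81%), 6 of them in Itsn1. The median number of tested tiles per gene was 6 and 5 in these lists and 4 over all genes. Both lists thus had larger shares than all genes, the lower and the higher alike, and neither share was tested.

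Among genes lower in RNA, the widest gaps were those of Paqr8 and Klhl41, given above, and of Smad1, a signal transducer of bone morphogenetic proteins (chr8:79385001-79390000). The intronic Smad1 tile had 57.5% and 51.9% in Tet2+/+ and 91.5%, 94.4% and 89.1% in Tet2-/-. D630023F18Rik (chr1:65105001-65110000) had 40.8% and 42.3% against 75.2%, 85.9% and 71.8%. The tile in Reln, which encodes an extracellular matrix protein (chr5:21965001-21970000), had 53.2% and 36.7% against 80.2%, 81.0% and 84.7%.

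Ikzf2, the gene of the zinc-finger factor Helios, had a chosen tile in an intron (chr1:69675001-69680000), with 56.2% and 49.3% against 81.5%, 81.0% and 86.3%. Adcy6, an adenylyl cyclase gene (chr15:98595001-98600000, 124 dyads), had 24.2% and 31.0% against 76.8%, 94.1% and 53.8%. The Tet2-/- libraries differed widely there, and library 8, the lowest, set the gap. Tmem267 (chr13:119595001-119600000) had 48.1% and 49.7% against 77.0%, 84.7% and 73.2%. Of the 18 chosen tiles of this list, 2 held the start site of the gene, those of Klhl41 and Tdrd9.

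Among genes higher in RNA, Zhx2, a homeobox repressor gene (chr15:57750001-57755000), had 53.1% and 53.6% in Tet2+/+ and 85.9%, 91.8% and 81.7% in Tet2-/-. Neurl1a, a ubiquitin ligase gene, held 2 intronic tiles. The first, chr19:47180001-47185000, had 46.5% and 37.5% against 71.5%, 77.8% and 69.8%, and the second had 61.4% and 60.2% against 84.3%, 90.2% and 85.0%. Itsn1 and Fignl2 are described above. None of these tiles held the start site of its gene.

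Short motifs of hematopoietic transcription factors were counted on both strands of the tiles. TTGCNNAA (CEBP) occurred 0.468 times per kb in chosen tiles and 0.506 times in all tested tiles, and 87.3% and 90.2% of tiles held it. GAGGAAGT (PU.1, ETS) occurred 0.0753 and 0.0622 times per kb and was held by 31.0% and 26.5%. The GATA factor letters, AGATAA, occurred 0.632 and 0.737 times per kb, and TGTGGT (RUNX) 0.864 and 0.784 times. CAGCTG (E-box) occurred 0.489 and 0.409 times per kb and TGANTCA (AP-1) 0.307 and 0.319 times.

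Among tiles of 50 to 79 dyads, 620 of which were chosen, the values for chosen and tested tiles were 0.437 and 0.433 per kb for the CEBP letters, 0.582 and 0.589 for GATA, 0.882 and 0.874 for RUNX, and 0.0794 and 0.0696 for PU.1. They were 0.544 and 0.537 for the E-box letters and 0.2997 and 0.312 for AP-1. Except for AP-1, whose difference was about as large as over all tiles, these values were closer to each other than without regard to CpG content. For PU.1 they were only somewhat closer, and the value of chosen tiles remained the higher. A match is a run of letters and not a bound site.

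Coverage was the measure not used by the rule beyond its minimum. Of the autosomal calls of libraries 23 and 24, the chosen tiles took 0.443% and 0.460%, and of those of libraries 5, 7 and 8 they took 0.439%, 0.439% and 0.431%. On average this was 0.451% ± 0.0117 (SD, n = 2) for Tet2+/+ against 0.436% ± 0.0046 (SD, n = 3) for Tet2-/-, with the groups not overlapping (exact permutation test, two-sided, p = 0.1, the smallest p that 10 splits allow). Without 1 library at a time, the difference ran from -0.0234 to -0.00685 percentage points. Coverage of other tiles of like CpG content was not set beside it, and its cause was not tested. Relative to its own mean per dyad, each library covered the chosen tiles 1.10 to 1.17 times as deeply as the autosomes.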

How the data were processed

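WGBS libraries were made from genomic DNA of sorted AML blasts with a post-bisulfite random-primed kit, per the labels. Reads were trimmed by the authors with Trim Galore 0.4.3, checked with FastQC 0.11.7, aligned to GRCm38 with Bismark 0.19.1 and Bowtie2 in non-directional mode, and deduplicated by position, so that counts are not labelled molecules. The deposited values are counts of methylated and unmethylated calls per CpG cytosine, not normalized.

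Calls of both strands were added and summed over 5 kb tiles, and the level of a tile is the weighted methylation level of the study, the methylated share of its calls. Tiles were kept with at least 20 calls in every library. Genes were taken from GENCODE vM21, and every autosomal CpG of the files matched the RefSeq GRCm38 sequence. The X chromosome was not checked in this way. The rule, the gene lists and the named tiles were chosen with earlier results of these data known. Tiles named were those with the widest gaps (at least 50 calls), adjacent pairs, the most dyads, TSS tiles, tiles at the threshold, the genes richest in chosen tiles, and list genes with a chosen tile. The printed windows were selected after values were seen. Of the tiles these rules name, 1 gene is not reported here. Because the rule used the contrast between genotypes, no test of levels was made; coverage was compared by exact permutation (10 splits of 2 and 3 libraries, two-sided). The code of the rule was run on simulated counts with seeded differences wider than the threshold. These counts had counting error but no other spread between libraries, so the run checked the code and not the chosen tiles. Depth differed by library and was also equalised by thinning. Python 3.11.15, NumPy 2.4.6, pandas 2.3.3, SciPy 1.17.1 and matplotlib 3.10.9 were used.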

Additional observations from a re-analysis of the deposited data

How the results depend on the processing

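No paired analysis was possible because the genotypes share no replicate number. With 1440 chosen tiles, a median of 11 CpG dyads per kb (7.4 over tested tiles), 2.08% next to another chosen tile and 50% overlapping a protein-coding gene (45.3% over tested tiles) as the main values, 29 of the 68 values of these under the alternatives stayed within the intervals or 1.5-fold bounds set for them. The number of chosen tiles was 20676 at a gap of 10 points, 116 at a gap of 30 points, 8866 with 2 kb tiles (of 865925) and 191 with 10 kb tiles (of 237251). It was 308 after each library's median was subtracted. All 308 were among the 1440, which was fixed in advance. Each Tet2-/- median was above both Tet2+/+ medians, so the subtraction could only narrow a gap. It stayed between 1246 and 1966 at other call minimums, with a shifted grid, with thinned calls, with dyads called in all libraries, without the chromosome 3 segment and on the plus strand alone.

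Dyads per kb were 11.8 at 50 calls, 9.4 at a gap of 10, 12.8 at a gap of 30, 10.5 with 2 kb and 11.6 with 10 kb tiles, 11.9 after median subtraction, 10.6 with dyads called in all libraries and 10.4 on the plus strand. The share next to another chosen tile was 22.2% at a gap of 10, 3.58% with the grid shifted by 2500 bp, 8.03% with 2 kb tiles, 1.05% with 10 kb tiles and 1.30% after median subtraction. The share overlapping a protein-coding gene was 54.0% at 50 calls, 45.3% at a gap of 10 (as over tested tiles), 56.9% at a gap of 30, 52.9% with 10 kb tiles and 55.2% after median subtraction. With 2 kb tiles it was 47.5%, below the 48.8% of tested tiles.

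Leaving out 1 library at a time gave 1732 (without Tet2-/- library 7) to 20379 (without Tet2+/+ library 23) tiles. It was 2689 without library 24, 3605 without library 5 and 3676 without library 8. Dyads per kb were then 7.8 to 10.6, adjacent tiles 2.37% to 20.7%, and tiles overlapping a protein-coding gene 41.6% to 48.5%. The lowest share in genes, without library 23, was below that of all tested tiles, as were those without library 24 (44.3%) and library 8 (42.03%), so the excess over protein-coding genes depended on the libraries and the cause was not tested. The coverage difference, -0.0151 percentage points, was -0.0234 to -0.00685 without 1 library and -0.0387 as relative depth. Against all annotated genes, the median distance to a TSS was 14.3 kb for chosen and 21.7 kb for tested tiles. With 5 kb on each side of the body, the lists of myeloid transcription factors, cytokine receptors and chromatin genes had 1, 2 and 2 genes with a chosen tile in place of 0, 1 and 1. Depth limits single tiles: with 20 to 50 calls, counting error alone spans many points.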

Other observations

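The X chromosome, which was left out of the autosomal rule, was measured in the same way. Of 27459 tested 5 kb tiles, 30 met the rule (0.109%). They held a median of 15.5 CpG dyads, below the 25 of all tested tiles of the chromosome, whereas chosen autosomal tiles held a median of 55 dyads against 37. The median level of X-linked tested tiles was 66.5% in Tet2+/+ and 71.7% in Tet2-/-. The shallowest library had a median of 55 calls per tile, against 102 over tested autosomal tiles. With 30 tiles at this lower depth, the contrast in CpG content was not separated from depth.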
